A study of Mus musculus with 107 samples.

Results

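The nuclear genes that encode the subunits of the mitochondrial respiratory chain were followed in mouse brain and spinal cord, across 24 cell populations. A gene was a member if its symbol in the array annotation has the form Ndufa, Ndufb, Ndufc, Ndufs or Ndufv with a number, or begins with Uqcr, Cox4 to Cox8 or Atp5, or is Sdha, Sdhb, Sdhc or Sdhd. This gave 80 of the 18194 genes on the array: 34 of complex I, 4 of complex II, 8 of complex III, 17 of complex IV and 17 of complex V. The rule itself used no measured value, except that a gene with several probe sets was read by the one with the highest mean over all arrays, which applied to 48 members. It was set with earlier results of these data known. Genes whose symbols do not have these forms, such as Cyc1, Ndufab1 and Cycs, were counted apart.

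Each array held RNA from translating ribosome affinity purification (TRAP) or its unbound fraction. In TRAP, a transgenic mouse carries a bacterial artificial chromosome (BAC) in which the regulatory region of a driver gene directs a tagged ribosomal protein to the cells that use the driver, and ribosomes with their mRNA are then pulled from tissue lysate. The unbound RNA is what remained of the tissue. All animals carried such a transgene, and no group had a further genotype or treatment in the labels, which give no age. Most populations rest on 1 BAC line, so that the line and the cell type cannot be told apart, and any cell that uses the driver contributes.

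The cortical groups were astrocytes (Aldh1l1, lines JD130 and JD133), mature oligodendrocytes (Cmtm5, JD307), mixed oligodendroglia (Olig2, JD97), and neurons of layer 5a (line TS88, whose driver is not analysed here), layer 5b (glt25d2, DU9) and layer 6 (Ntsr1, TS16), and Cck+ (GM391), Cort+ (GM130) and Pnoc+ (GM64) neurons. The striatal groups were medium spiny neurons of the Drd1 (CP73) and Drd2 (CP101) lines and cholinergic neurons (Chat, DW167). The same Chat line gave cholinergic neurons of basal forebrain and spinal cord and motor neurons of brainstem. The cerebellar groups were astrocytes (Aldh1l1, JD130), Bergmann glia (Septin4, DS152), mature oligodendrocytes and mixed oligodendroglia (lines as in cortex), and Purkinje (Pcp2, DR166 and DR168), granule (Neurod1, JP241), Golgi (Grm2, JP77), unipolar brush (Grp, JP25) and stellate and basket neurons (Lypd6, JP48). There were 3 TRAP arrays per population, 4 for cortical astrocytes and 6 for Purkinje neurons. Unbound RNA was on 9 arrays of cortex, 7 of cerebellum and 6 of striatum, and on 3 of each other tissue (spinal cord, brainstem and basal forebrain).

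The respiratory chain of the inner mitochondrial membrane passes electrons from NADH (complex I) and succinate (complex II, whose Sdh subunits also carry a step of the tricarboxylic acid cycle) through complex III and cytochrome c to oxygen at complex IV, while protons are pumped outward. Complex V, the ATP synthase, uses the returning protons to make ATP. Neurons depend on this ATP to keep ion gradients, and astrocytes and oligodendrocytes are known for a high capacity for glycolysis beside it. Several subunits of complex IV exist as a widely used and a tissue-restricted isoform, made from separate genes: Cox6a1 and Cox6a2, Cox6b1 and Cox6b2, Cox7a2 and Cox7a1, Cox8a and Cox8b. Cox7b2 is a restricted isoform of subunit 7b, whose common gene Cox7b is not analysed here. The factor NRF1 and the ETS family factor GABP (NRF2) are the textbook regulators of the widely used genes.

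Promoters of 3 restricted isoforms are shown, with Sdha and Cox6a1 as the widely used members chosen for their NRF1 matches. RefSeq (GRCm38.p6) gave the 250 bases before the start site for 66 of the 80 members, as 71 promoters. The letters searched on both strands were GCGCA and GCGC with 1 base of any kind between them for NRF1, CCGGAAG for ETS factors, TCAAGGTCA for ERR and CCAAT for the CCAAT box, and no NRF1 match overlapped another NRF1 or an ETS match. The Sdha promoter, of the flavoprotein subunit of complex II, held 3 NRF1 matches, and that of Cox6a1 held 2 NRF1 matches and 1 ETS match. Those of Cox6b2, Cox7a1 and Cox7b2 held CCAAT matches and none of the other letters searched. Not every common partner held them either: Cox6b1 had 1 ETS match and no NRF1 match, and Cox7a2 and Cox8a had neither. Each is written 5′ to 3′ in the direction of its gene, with capitals on the NRF1, ETS and CCAAT matches of either strand.
Sdha, chr13:74350241-74350490, minus strand: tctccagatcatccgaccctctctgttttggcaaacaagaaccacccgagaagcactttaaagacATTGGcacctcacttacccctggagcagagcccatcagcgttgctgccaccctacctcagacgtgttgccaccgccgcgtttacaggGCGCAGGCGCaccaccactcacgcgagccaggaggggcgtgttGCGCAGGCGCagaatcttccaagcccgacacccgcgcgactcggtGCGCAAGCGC
Cox6a1, chr5:115348959-115349208, minus strand: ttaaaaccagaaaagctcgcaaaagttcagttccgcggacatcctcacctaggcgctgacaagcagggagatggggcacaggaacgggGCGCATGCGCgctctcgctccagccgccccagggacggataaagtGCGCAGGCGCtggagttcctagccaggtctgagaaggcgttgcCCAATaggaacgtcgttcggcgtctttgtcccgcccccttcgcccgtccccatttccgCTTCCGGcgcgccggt
Cox6b2, chr7:4753095-4753344, minus strand: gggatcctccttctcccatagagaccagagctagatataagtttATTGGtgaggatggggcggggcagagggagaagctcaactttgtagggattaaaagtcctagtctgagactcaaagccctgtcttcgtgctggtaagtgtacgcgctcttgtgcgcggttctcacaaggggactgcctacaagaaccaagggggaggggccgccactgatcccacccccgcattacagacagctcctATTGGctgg
Cox7a1, chr7:30183921-30184170, plus strand: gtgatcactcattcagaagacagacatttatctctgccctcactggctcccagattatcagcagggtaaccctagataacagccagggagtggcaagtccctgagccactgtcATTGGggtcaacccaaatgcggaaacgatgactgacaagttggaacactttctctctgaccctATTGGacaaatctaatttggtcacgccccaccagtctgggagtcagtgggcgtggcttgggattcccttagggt
Cox7b2, chr5:71548206-71548455, minus strand: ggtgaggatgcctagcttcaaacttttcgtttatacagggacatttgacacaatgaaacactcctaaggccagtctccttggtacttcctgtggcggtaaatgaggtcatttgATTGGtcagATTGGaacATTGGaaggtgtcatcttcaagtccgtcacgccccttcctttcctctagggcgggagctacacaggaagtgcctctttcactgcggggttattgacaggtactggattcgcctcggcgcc

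The NRF1 letters stood in 12 member promoters, 16.9% of them, against 3.74% of 32851 promoters of 27025 genes. The ETS letters also stood in 12, 16.9% against 6.91%. At least 1 of both was found in 21 member promoters, 29.6% against 10.1%, and both in 3. The ERR letters were in 1.41% of member promoters against 0.387%, and CCAAT was in 40.9% against 33.9%. Member promoters were rich in CpG, with a median of 14 CpG sites against 6 over all promoters, and had a median GC content of 56.4% against 52.4%. In the 4 restricted isoforms with an entry (Cox6b2, Cox7a1, Cox7b2 and Cox8b) no NRF1 or ETS match was found, the median was 6 CpG sites, and 3 of 4 held CCAAT. A match is a run of letters and not a measured site.

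Levels are log2 of the deposited GCRMA intensity, shifted so that 18 biotinylated control probe sets had the same mean in every group. A level under 6, an intensity of 64, was taken as too low to compare. Every result was also computed after quantile normalization of all arrays, which removes any shift common to all genes. A gene was called where limma's adjusted p was under 0.05 and the change at least 1.5-fold. Those p-values rest on the spread between arrays within groups, over TRAP and unbound groups together. The unbound groups of cortex, cerebellum and striatum hold arrays of several lines. The TRAP preparations are independent ones per the authors, who do not say how many animals each held. Where the means of several populations are averaged, the spread between those populations does not enter the p-values. Replicates were normalized together by the authors, and 8.75% to 20% of the members had the same value on all arrays of a group of 3, which narrows their spread. Other cells showed in some populations. Layers 5a, 5b and 6, Cort+, stellate and basket and unipolar brush TRAP RNA held 12 of 12 astrocyte markers at 6 or above, as cortical astrocytes did, and layer 5a also held 10 of 11 microglia and macrophage markers. Cck+ and granule neurons held 5 of the 12 astrocyte markers, Purkinje neurons 4, and Pnoc+ and Golgi neurons 3. Glial populations held neuron markers at 6 or above as well: 11 of 11 in mature oligodendrocytes of both tissues and in cortical mixed oligodendroglia, 9 in cerebellar mixed oligodendroglia and Bergmann glia, 8 in cerebellar astrocytes and 7 in cortical astrocytes. Their summed level was 14.87 to 15.87 in cerebellar mature oligodendrocytes, against 15.05 to 15.48 in Purkinje neurons, and Pcp2, the Purkinje driver, was at 13.68 and 16.10 in these. Bergmann glia also held 9 of 10 oligodendrocyte markers. The part of these other cells in the comparisons of neurons with glia and among glia was not tested. In bulk RNA of this kind, fewer cells of a type and less RNA per cell cannot be told apart.

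Nearly the whole chain was measured in every group. Of the 80 members, 77 reached 6 in some group and 69 in all 30 groups. The exceptions lay in complex IV, where 9 of 17 members reached 6 in all groups, against 31 of 34 in complex I and each member of complexes II, III and V. Cox4i2 and Cox8c, isoforms of complex IV, and Ndufb4 of complex I did not reach 6 anywhere. Ndufb4 was read by 1 probe set, and a low value can also come from a probe set that detects its transcript poorly, which was not tested. The median SD over the 24 TRAP means was 0.61 (log2) over the members. Among the 70 members with a mean of at least 10 it was 0.59, and after quantile normalization 0.49. For the 2900 genes with a mean of at least 10 it was 0.87 and 0.76. These sets share only the lower limit, and 37 of the 70 members had a mean of at least 14. Whether members vary less than genes of equal level was not tested. Ndufc2 varied least, with an SD of 0.26, followed by Uqcrb (0.28), Cox5b (0.29), Cox6a1 (0.29), Ndufb9 (0.33) and Atp5h (0.34). Their means were 14.69 to 15.62, near the top of the scale, and the part of a signal limit there was not tested. Cox6a2 varied most, with an SD of 2.51 and means from 1.73 to 10.19, followed by Cox6b2 (2.46), Cox7b2 (2.29), Cox7a1 (1.80), Cox7c (1.79) and Cox8b (1.56). Each of these 6 is a subunit of complex IV. Spread fell with level: it was 0.44 for the 37 members with a mean of at least 14, 0.82 for 33 between 10 and 14, and 1.68 for 10 below 10.

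**Figure D1:**
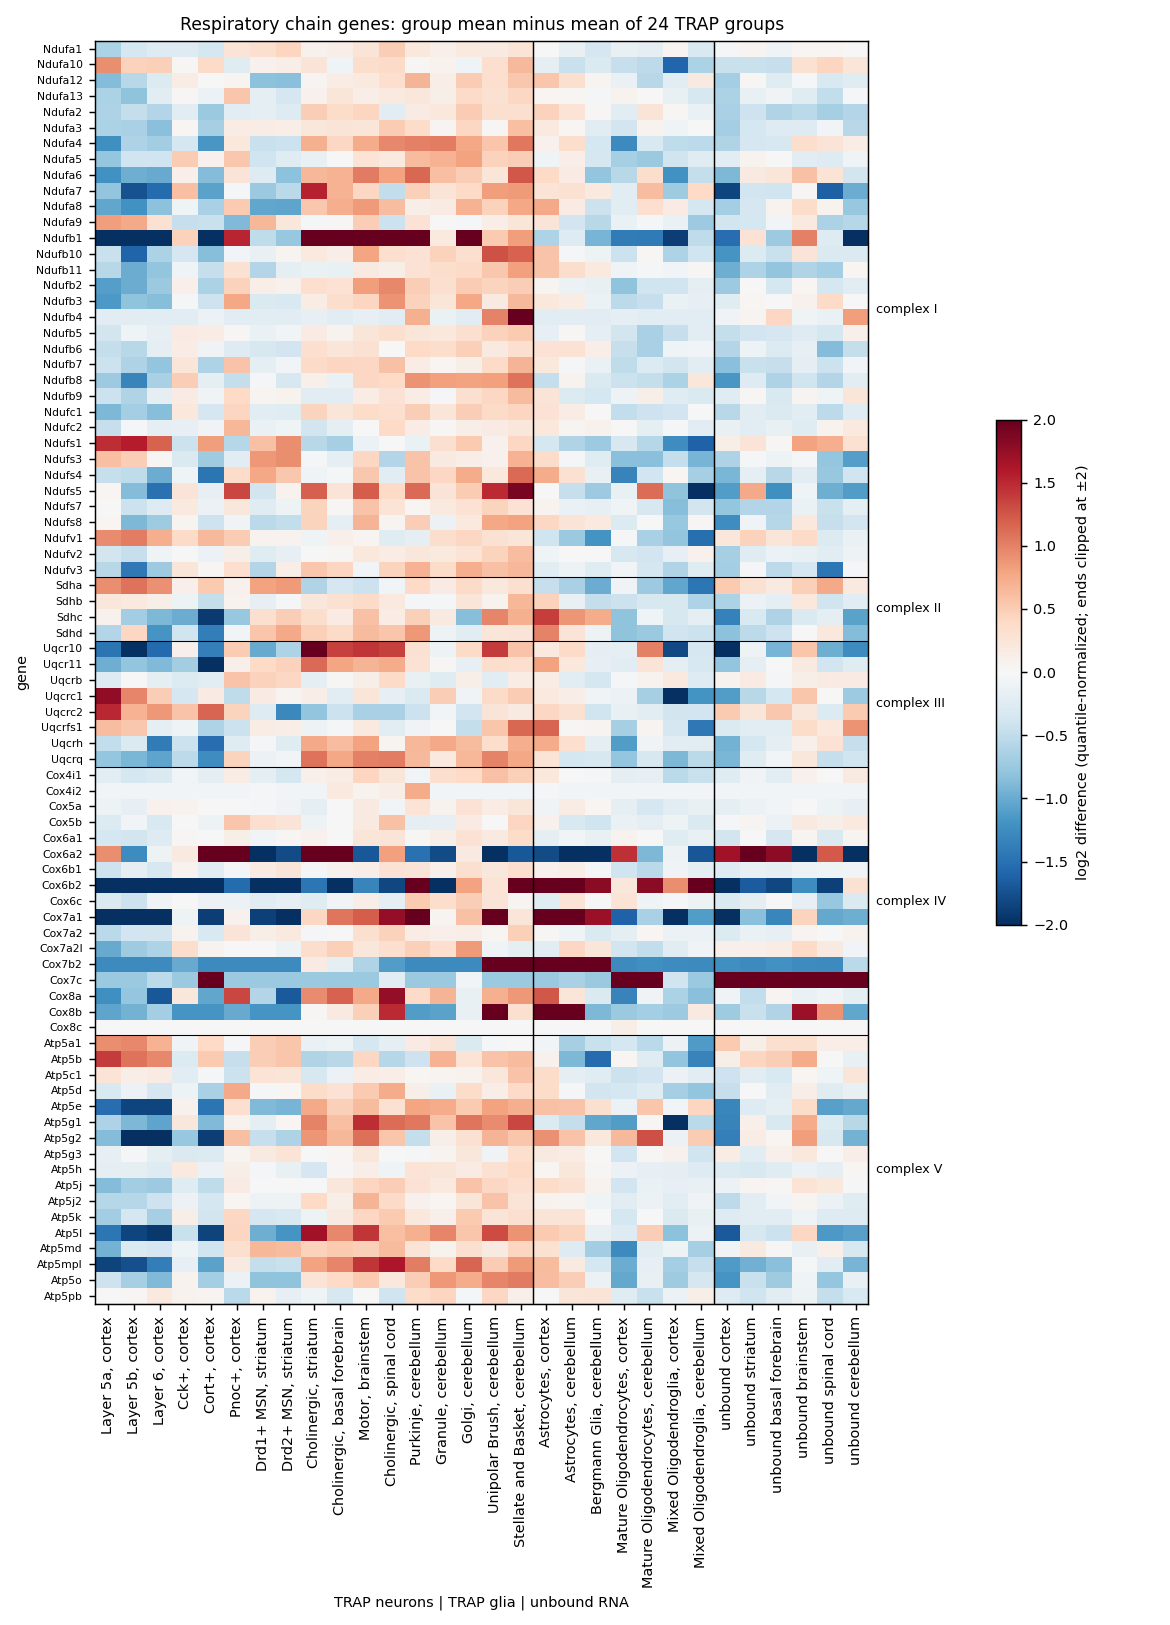
Group means of the 80 members (vertical axis, by complex) in 17 neuron and 7 glia TRAP populations and 6 unbound tissues (horizontal axis), as log2 differences from the mean of the 24 TRAP groups after quantile normalization, with colours clipped at 2 either way. Most of the chain varies little, while Cox6a2, Cox6b2, Cox7b2 and Cox8b of complex IV are high in a few columns each, and Cox7a1 in more.

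The restricted isoforms of complex IV that reached 6 differed in where they were high, with some populations shared. Cox7a1 was the most widespread of them, at 6 or above in 14 of 24 TRAP populations. Cox6a2, the heart and muscle isoform of subunit 6a, stood at 10.20, 10.18 and 10.20 in basal forebrain cholinergic neurons and at 8.99, 8.91 and 9.69 in striatal cholinergic neurons. It was 8.49 on each array of Cort+ neurons and 8.54, 8.23 and 8.33 in Pnoc+ neurons, both of them cortical interneuron lines. Its mean was 4.59 in cholinergic neurons of spinal cord and 2.82 in brainstem motor neurons, which came from the same Chat line. Cox6a2 thus reached 6 in 9 of 30 groups, which were those 4, layer 5a and the unbound RNA of basal forebrain, striatum, spinal cord and cortex. A further Cox6a2 probe set gave 9.74, 7.91, 7.30 and 8.53 in the 4 populations, in the order named, but 2.36 in layer 5a, where the main one gave 7.04.

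Cox6b2, known as the testis isoform of subunit 6b, was high in Purkinje neurons, the output neurons of the cerebellar cortex. It measured between 10.87 and 11.03 on the 3 arrays of line DR166 and 10.98, 11.02 and 11.66 on those of DR168. The next populations were cerebellar astrocytes at 7.96, 8.19 and 8.49, and 5 more groups had means between 6.07 and 7.16, so that no array of another group came near the Purkinje arrays. Cox7a1, the heart and muscle isoform of subunit 7a, was also highest there, with a lowest array of 10.09, a median of 10.39 and a highest of 10.95. Cerebellar astrocytes overlapped with them for Cox7a1 at 10.04, 10.24 and 10.15. Unipolar brush neurons followed at 9.16, 9.42 and 9.21, and cortical astrocytes at 8.95, 8.77, 8.86 and 9.04.

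Cox7b2, an isoform of subunit 7b, reached 6 in 3 of 30 groups, all of them cerebellar TRAP populations. Bergmann glia, the radial astrocytes that ensheathe Purkinje dendrites, had 9.86, 9.91 and 9.74, unipolar brush neurons 8.34, 8.63 and 8.14, and cerebellar astrocytes 8.12, 7.83 and 7.43. Unbound cerebellum had a Cox7b2 mean of 3.80. Cox8b, the heart and muscle isoform of subunit 8, was highest in unipolar brush neurons at 7.91, 8.11 and 8.17, and next in cerebellar astrocytes at 6.61, 6.77 and 6.67. Unipolar brush TRAP RNA also held 12 of 12 astrocyte markers, with a summed level of 16.37 to 16.45 against 17.37 to 17.45 in cerebellar astrocytes, and its Cox7b2 and Cox8b were above those astrocytes. The part of other cells in these values was not tested.

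**Figure D2:**
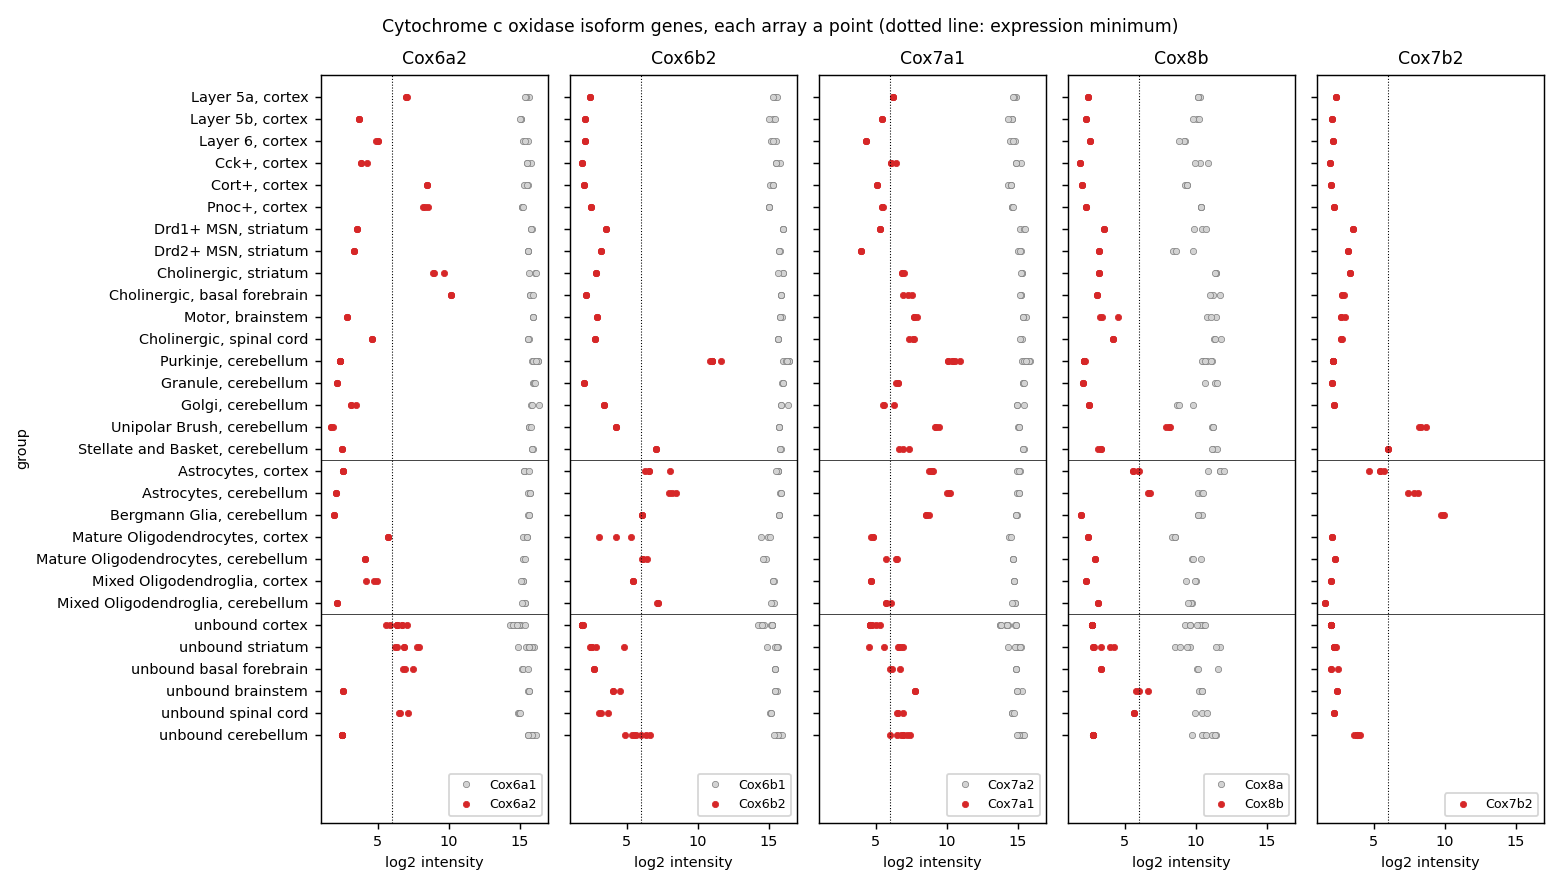
Log2 intensity (horizontal axis) of 5 restricted isoforms of complex IV (red) and, in gray, of the widely used partner of 4 of them, on every array of 30 groups (vertical axis), with a dotted line at 6. Levels of different probe sets cannot be set against each other. Cox6b2 is near 11 in Purkinje neurons and Cox6a2 near 10 in basal forebrain cholinergic neurons, while the gray partners Cox6a1, Cox6b1 and Cox7a2 have TRAP means between 14.44 and 16.28.

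The common partners varied less. Cox6a1 ran from a mean of 15.08 in layer 5b to 16.11 in Purkinje neurons, Cox6b1 from 14.70 in cerebellar mature oligodendrocytes to 16.28 in Purkinje neurons, and Cox7a2 from 14.44 in cortical mature oligodendrocytes to 15.59 in Purkinje neurons. Cox7a2l, a relative of Cox7a2 that acts in joining complexes III and IV, ran from 12.82 in Pnoc+ neurons to 14.65 in Purkinje neurons. Cox4i1, the widely used isoform of subunit 4, ran from 14.46 in cortical mixed oligodendroglia to 15.74 in granule neurons. Cox8a varied more. Its lowest arrays were 8.30, 8.51 and 8.55 in cortical mature oligodendrocytes, and its highest mean, 11.56, was in cortical astrocytes.

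Cox7c, a small structural subunit of complex IV, behaved unlike the others on its probe set. Which transcript this probe set measures was not settled, and this holds for every Cox7c value given here. It was 7.98, 7.98 and 7.81 in cerebellar mature oligodendrocytes, 7.67, 7.14 and 6.78 in those of cortex, and 7 on each Cort+ array. In the unbound RNA of the 6 tissues its means lay between 6.5 and 8.02, and in the other 21 TRAP populations it stayed under 6. Ndufb1, an accessory subunit of complex I, was highest in the 4 cholinergic populations and Purkinje neurons: 9.68, 9.63 and 9.57 in brainstem motor neurons, 8.59, 9.20 and 9.02 in spinal cord, 8.70, 8.70 and 9.03 in striatum, and means of 8.13 in basal forebrain and 8.22 in Purkinje neurons. Ndufs5, also of complex I, stood at 12.57, 12.78 and 12.85 in stellate and basket neurons and at 4.19, 4.45 and 5.29 in cerebellar mixed oligodendroglia, although it was 9.77, 9.77 and 10.55 in the cortical mixed oligodendroglia of the same line.

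The level of the chain relative to other genes differed among populations, with group means within 1 log2 unit of the average under control scaling. For each array the median deviation of the 69 members measured in all groups was set against that of 4780 genes measured likewise. Under control scaling the difference was highest in Golgi neurons at 0.88 ± 0.13 (SD, n = 3), spinal cord cholinergic neurons at 0.58 ± 0.02 (n = 3) and Pnoc+ neurons at 0.49 ± 0.02 (n = 3). It was lowest in layer 5a at -0.91 ± 0.11 (n = 3), layer 5b at -0.86 ± 0.04 (n = 3) and layer 6 at -0.67 ± 0.08 (n = 3). After quantile normalization the order at the top changed, to stellate and basket neurons at 0.39, brainstem motor neurons at 0.30 and unipolar brush neurons at 0.28, while layers 5b, 6 and 5a remained lowest at -0.37, -0.34 and -0.32. The sign was the same under both scalings in each of the 24 populations, positive in 12 and negative in 12, but basal forebrain cholinergic neurons fell from 0.36 to 0.00096 with arrays on both sides of 0. Both mature and both mixed oligodendroglia groups were negative, between -0.47 and -0.24 under control scaling. The groups of the astrocyte line Aldh1l1 were positive, at 0.32 in cortex and 0.33 in cerebellum, while Bergmann glia were at -0.16. Part of this measure moves with the other genes, since their deviation is subtracted in it. Its Pearson's r with the deviation of all genes was -0.58 over the 24 populations. The subtraction lowers this r by construction and the values share arrays, so it is a description only. The layer populations with the lowest values held all 12 astrocyte markers.

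**Figure D3:**
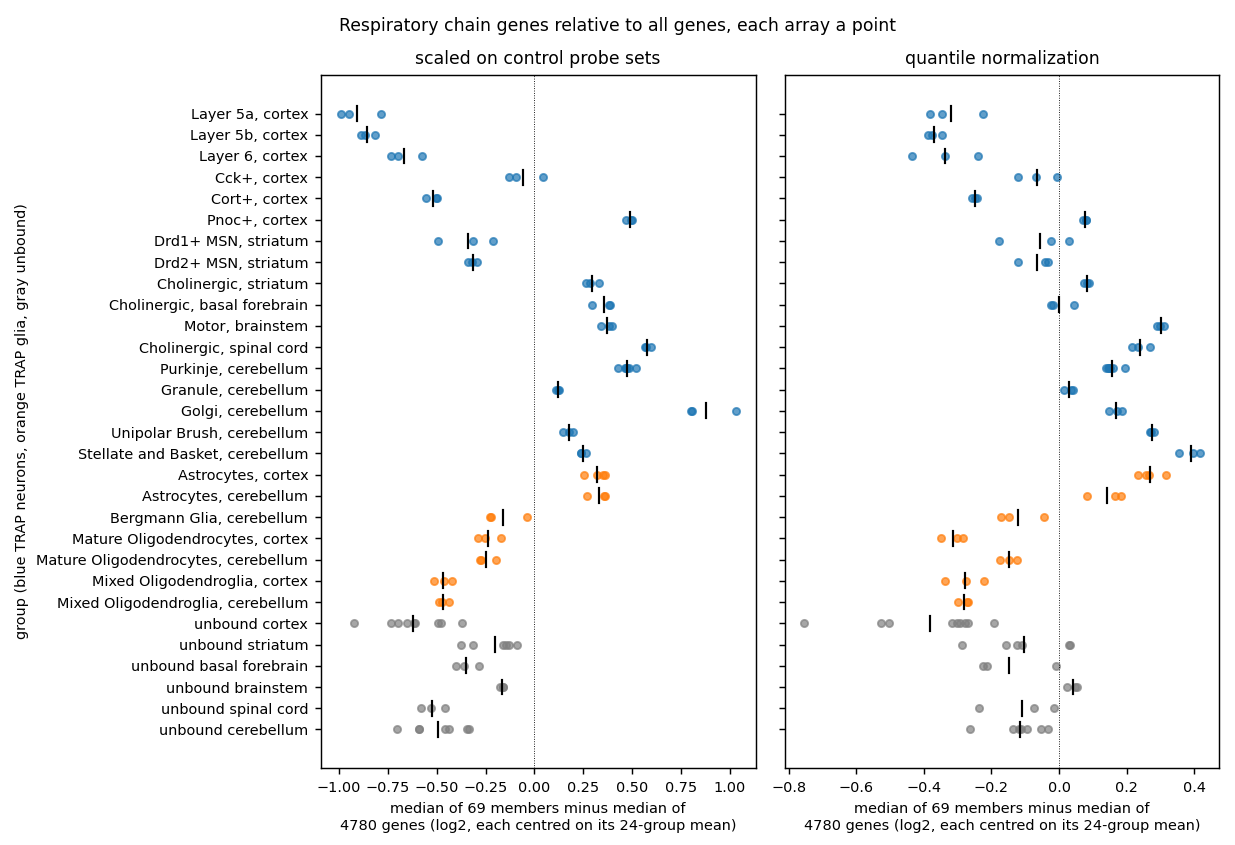
Median deviation of 69 members minus that of 4780 genes (log2, horizontal axis) on every array, by group (vertical axis; blue TRAP neurons, orange TRAP glia, gray unbound), under control scaling (left) and quantile normalization (right). Black bars are group means. Layers 5a, 5b and 6 lie lowest among the TRAP neurons in both panels.

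Most members rose and fell together across populations, while 9 did not follow the others. After quantile normalization the median Pearson's r between pairs of the 69 members over the 24 TRAP means was 0.49, with 80.9% of pairs above 0, against 0.01 and 51.1% for all 4780 genes. It was 0.56 within a complex and 0.46 between complexes. These points share arrays and their normalization, so the values describe and test nothing. The members closest to the mean of the others were Uqcrq, a small subunit of complex III (r = 0.93), Ndufa4 (0.91), Ndufa6 (0.90), Atp5mpl (0.90) and Ndufb7 (0.90). Uqcrq was 14.28 on each array of striatal cholinergic neurons and 11.50, 11.58 and 11.67 in Cort+ neurons. Atp5l, the g subunit of the ATP synthase, was 13.68, 13.74 and 13.76 against 9.63, 9.98 and 10.12 in the same populations.

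There were 9 members with an r under 0.1 with the mean of the others, a limit set after the values were seen, and these were mostly large core subunits. These were Ndufs1 and Ndufv1, which carry iron-sulfur clusters and the flavin of complex I, Ndufa9 of complex I, the flavoprotein Sdha of complex II, the core proteins Uqcrc1 and Uqcrc2 of complex III, and the α and β subunits Atp5a1 and Atp5b and the peripheral stalk subunit Atp5pb of the ATP synthase. Uqcrc1 was just inside the limit at 0.09 and Uqcrb just outside at 0.21, and Uqcrc2 was lowest at -0.39. Core subunits as a class were not apart, since others lay above the limit: Ndufs7 (0.80), Ndufv2 (0.78), Ndufs8 (0.77), Sdhb (0.65), Uqcrfs1 (0.38) and Ndufs3 (0.34). The median pairwise r was 0.61 among these 9 members, 0.59 among the other 60 and -0.15 between the sets. The 9 were chosen by their low r over these same means, so the low value between the sets follows from the choice. In layer 5b the median deviation of the 9 was 0.98 (log2, quantile normalization) against -0.57 for the 60. It was 0.95 against -0.55 in layer 5a, 0.73 against -0.62 in layer 6 and 0.52 against -0.41 in Cort+ neurons. In cerebellar mixed oligodendroglia it was -1.20 against -0.23, and in cerebellar astrocytes -0.61 against 0.14. Control scaling gave the same signs in each of these 6 populations, with 0.97 against -0.54 in layer 5b and 1.34 against -0.11 in layer 5a.

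The arrays of single members of the 9, which describe the pattern they were chosen by, were as follows. Uqcrc2 was 15.71, 16.03 and 16.21 in layer 5a and lowest in Drd2 medium spiny neurons, with arrays from 13.00 to 13.08, although the median of the 9 members was raised there (0.22 against -0.09 for the 60, quantile normalization). Ndufs1 was 13.08, 13.31 and 13.57 in layer 5a and 12.51, 13.11 and 13.20 in layer 5b, against 9.60, 9.69 and 9.76 in cerebellar mixed oligodendroglia and 9.26 on each Pnoc+ array. Atp5b was 15.06, 15.06 and 15.31 in layer 5a and 11.70, 11.71 and 12.03 in Pnoc+ neurons. The high and the low groups named for a gene did not overlap. They were taken from at or near the ends of its range, so this is no separate evidence for the pattern. The genes of the 9 members span more of the genome, with a median of 16566 bases against 7154 for the other 60.

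The 4 subunits of complex II were high in different populations. Sdha was highest in layer 5a at 14.52, 14.57 and 14.59 and in Drd1 neurons at 14.36 on each array, and lowest in cerebellar mixed oligodendroglia at 11.70, 11.99 and 12.04. Sdhb, its iron-sulfur partner, ranged only from a mean of 12.61 in cortical mature oligodendrocytes to 14.22 in stellate and basket neurons. The membrane anchor Sdhc was highest in cortical astrocytes at 12.90, 13.47, 13.73 and 13.77, and lowest in Pnoc+ (mean 9.91) and Cort+ neurons (mean 10.10). The other anchor, Sdhd, was highest in Purkinje neurons (mean 12.29), Drd1 neurons (12.23) and cortical astrocytes (12.19), and lowest in cortical mature oligodendrocytes (9.77), Pnoc+ (9.79) and Cort+ neurons (9.84).

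The c ring of the ATP synthase is one protein made from 3 genes, and these differed in where they were high. Atp5g1 was highest in brainstem motor neurons (mean 14.33), Purkinje neurons (14.05) and stellate and basket neurons (13.99), and lowest in cortical mixed oligodendroglia, with arrays from 10.13 to 10.39. These values are of 1 of its 2 probe sets. With the mean of both, the Atp5g1 difference between Purkinje and granule neurons changed sign, as given under the alternatives below. Part of this order therefore depends on the probe set. Atp5g2 was also highest in brainstem motor neurons (12.25), but lowest in layer 6 (9.15), Cort+ (9.22) and layer 5b neurons (9.47). Atp5g3 stayed between 14.11 in cortical mature oligodendrocytes and 15.32 in Drd1 neurons.

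The neuron populations of a tissue were compared with its glia, averaging group means on each side. The p-values of these comparisons, and of their difference between tissues, leave out the spread between populations and lines. They therefore hold for the populations measured, and a difference between neurons and glia in general was not tested. In cerebellum much of the chain was higher in neurons: 35 of 76 members tested were called higher and 3 lower, where 25% of all genes tested were higher and 37.2% lower. The median member difference was 0.58 (log2) against -0.16 for all genes, and 28 were higher and 3 lower after quantile normalization (30.9% and 29.3% of all genes). Complex I contributed 20 of its 33 tested members, complex II 2 of 4, complex III 3 of 8 and complex V 8 of 17. Complex IV had 2 of 14 higher, and all 3 of the lower members were in it. Ndufs5 led at 2.63 (SE 0.19, adjusted p = 5.0e-22), at least 4.88-fold, although 1 glial group, mixed oligodendroglia, was under 6. Atp5g1 was higher by 1.58 (SE 0.13, adjusted p = 4.9e-19), Ndufv1 by 1.33 (SE 0.10, adjusted p = 1.7e-22) and Sdha by 1.32 (SE 0.10, adjusted p = 8.8e-21), and for these 3 every neuron array lay above every glial array. Ndufb1 was higher by 1.58 (SE 0.10) and Atp5b by 1.44 (SE 0.13). The 3 lower ones were Cox6b2 (-1.35), Cox7c (-1.32) and Cox7b2 (-1.22), all with neuron means under 6. The Cox6b2 mean of the 5 neuron populations was 5.56, against 11.10 in Purkinje neurons alone. With only Purkinje, granule and Golgi neurons, which hold few astrocyte markers, 35 members were higher and 5 lower (22.9% and 43.9% of all genes). Quantile normalization of those populations gave 22 higher and 5 lower (33.8% and 31.6% of all genes). The share of members called higher was then smaller than that of all genes, with medians of 0.42 and 0.11.

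In cortex the members were split. Of 75 tested, 10 were called higher in neurons and 9 lower, where 41.1% of all genes were higher and 27.9% lower. The median member difference was -0.02 against 0.26 for all genes, and -0.11 against -0.03 after quantile normalization, with 10 higher and 11 lower (34.5% and 35.2% of all genes). The higher ones were mainly from the set of 9 members named above: Ndufs1 by 1.42 (SE 0.11, adjusted p = 3.9e-22), Uqcrc1 by 1.15 (SE 0.17), Ndufv1 and Sdha each by 1.11, Uqcrc2, Atp5b and Atp5a1, with Ndufa10 (1.12), Atp5g1 (0.91) and Cox6a2 (1.79). That set was chosen on means that include these cortical populations, so the overlap is no separate evidence for it. The lower ones were Cox6b2 (-3.36), Atp5g2 (-1.43, SE 0.19), Atp5e, the ε subunit of the ATP synthase (-0.99), Uqcr11 (-0.89), Cox7c (-0.84), Sdhc (-0.80), Atp5l, Cox7a1 and Ndufa8. Arrays of both sides overlapped for each of those named with a value except Cox6b2. These calls rest in part on the layer and Cort+ populations. With Cck+ and Pnoc+ neurons alone, which hold few astrocyte markers, 5 members were higher and 9 lower (20.8% and 50.2% of all genes), Ndufs1 turned to -0.44 and Uqcrc1 to -0.34, and Sdha (0.16), Ndufa10 (0.13) and Ndufv1 (0.49) were no longer called. Atp5g1 (0.92), Sdhc (-1.55) and Uqcr11 (-0.84) were still called. Quantile normalization of those populations gave 14 higher and 5 lower (33.9% and 33.8% of all genes). The part of astrocyte RNA in these differences was not tested.

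The neuron-glia difference was then compared between the tissues within the same fit. It was smaller in cortex than in cerebellum for 41 of 77 members and larger for 2, where 15.8% of all genes were smaller and 44.3% larger. The median was -0.63 against 0.44 for all genes, and -0.60 against -0.06 after quantile normalization, with 40 smaller and 2 larger (29.5% and 27.3% of all genes). By complex, 21 of 33 members of complex I, 2 of 4 of complex II, 3 of 8 of complex III, 5 of 15 of complex IV and 10 of 17 of complex V were smaller. The leading ones were Ndufs5 (-2.20, SE 0.28), Cox6b2 (-2.01), Atp5l (-1.45), the small ATP synthase subunit Atp5mpl (-1.43), Ndufb1 (-1.39) and Ndufb10 (-1.30). Uqcrc2 (0.77, SE 0.14) and Cox6a2 (1.96) were larger in cortex. Sdha, with 1.11 in cortex and 1.32 in cerebellum, was not called different (-0.21, adjusted p = 0.20). With only the neuron populations of few astrocyte markers, 44 were smaller and 2 larger under control scaling (35.9% and 24.6% of all genes), but 13 and 4 after quantile normalization (29.3% and 26.7% of all genes), so the extent of the tissue difference depends on which populations and scaling are taken.

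**Figure D4:**
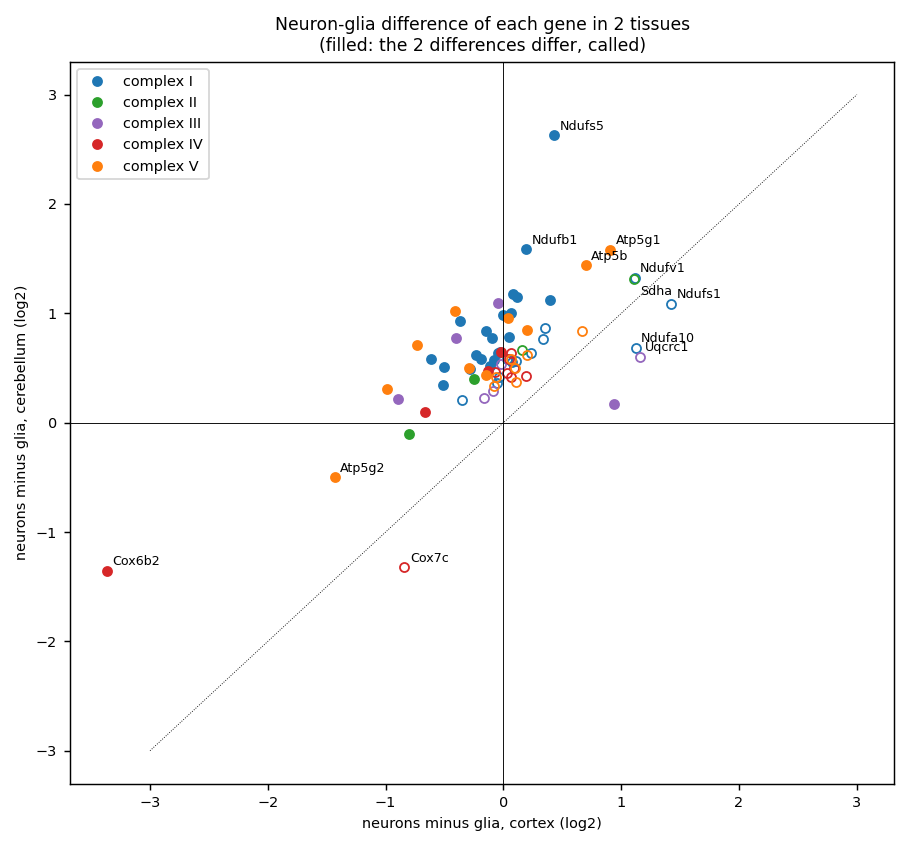
Neuron minus glia difference (log2) of each member in cortex (horizontal axis) and cerebellum (vertical axis), coloured by complex, under control scaling. Filled points were called different between the tissues and the dotted line marks equal differences. Most points lie above the line, Ndufs5 farthest at 0.43 in cortex and 2.63 in cerebellum, with Ndufs1 and Uqcrc2 on the other side.

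Among glia, many members were higher in astrocytes than in mature oligodendrocytes, more clearly in cortex. In cortex 57 of 73 members were called higher in astrocytes and 1 lower, where 43.3% of all genes were higher and 27.1% lower, with a median of 0.99 against 0.37. Quantile normalization left 36 higher and 2 lower (33.2% and 35.1%). Cox7a1 was higher by 4.14 (SE 0.26, at least 7.50-fold), Cox8a by 3.10 (SE 0.39), Sdhc by 2.88 (SE 0.29), the complex I subunit Ndufs4 by 2.77 (SE 0.26) and Uqcrfs1, the Rieske iron-sulfur protein of complex III, by 2.47 (SE 0.22), each without overlap between arrays. Cox7c went the other way, at -5.15 (SE 0.26), with astrocytes under 6. In cerebellum 41 of 75 were higher and 2 lower (32.7% and 34.3% of all genes), and 20 of 76 and 3 after quantile normalization (35% and 31.2%), a smaller share than that of all genes. Cox7b2 led at 5.52 (SE 0.11, at least 3.46-fold), with Cox7a1 at 3.94 (SE 0.27) and Cox8b at 3.76 (SE 0.18), while Cox7c (-5.84) and Ndufs5 (-1.50, SE 0.42) were higher in oligodendrocytes. Oligodendrocytes were under 6 for Cox8b and astrocytes for Cox7c.

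Bergmann glia differed from cerebellar astrocytes most in complex IV isoforms. Of 74 members 1 was called higher, Cox7b2 by 2.05 (SE 0.11, adjusted p = 4.1e-29, 4.14-fold), and 4 lower, where 33.5% of all genes were higher and 5.31% lower. The lower ones were Cox8b (-4.79, SE 0.18), Cox6b2 (-2.14, SE 0.32), Cox7a1 (-1.56, SE 0.27) and Uqcrc2 (-0.62, SE 0.21), and arrays overlapped for Uqcrc2 alone. Cox8b was under 6 in Bergmann glia, so the size of its difference is not measured. Quantile normalization gave 1 higher and 10 lower (11.4% of all genes each), and without Bergmann glia replicate 3 the count of higher members was 2.

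Mature oligodendrocytes against the mixed oligodendroglia of the Olig2 line gave 4 higher and 15 lower of 74 members (15.8% and 44.1% of all genes). This count turned with the scaling, to 14 higher and 1 lower after quantile normalization (26.3% and 27.5% of all genes), and all genes had moved by a median of -0.45 under control scaling. Cox7c (5.70, SE 0.20, at least 2.95-fold), Ndufs5 (3.46, SE 0.30, at least 6.85-fold), the small complex III subunit Uqcr10 (0.92, SE 0.29) and Uqcrc1 (0.70, SE 0.24) were higher under both scalings.

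Between cerebellar neurons, Purkinje neurons exceeded granule neurons most in the restricted isoforms Cox6b2 and Cox7a1. Of 73 members 10 were called higher and 3 lower, where 27.3% of all genes were higher and 42.2% lower. Cox6b2 was higher by 9.07 (SE 0.27, adjusted p = 1.3e-47), at least 34.2-fold, and Cox7a1 by 3.92 (SE 0.24), 15.2-fold. Ndufb1 (1.78, SE 0.19), Sdhd (1.06, SE 0.28), Ndufs5 (0.94) and Ndufs8 (0.76) followed, with no overlap between arrays. Lower in Purkinje neurons were Atp5b (-1.07, SE 0.25), Uqcrc1 (-0.84, SE 0.30) and Atp5g2 (-0.74, SE 0.35), whose call was lost after quantile normalization (-0.60). The common partners did not pass the call: Cox6b1 differed by 0.30, Cox6a1 by 0.10 and Cox7a2 by 0.20. Leaving out granule replicate 1 brought the count of higher members to 6, and leaving out granule replicate 3 that of lower members to 1. With Purkinje line DR168 alone, 5 were higher and 5 lower. Quantile normalization gave 7 higher and 2 lower (30.8% and 33.9% of all genes).

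In cortex, Cort+ neurons lay below the layer 5a, 5b and 6 neurons in much of complexes II and III. Of 73 members 2 were called higher and 19 lower, where 8.78% of all genes were higher and 52.7% lower, with medians of -0.24 for members and -0.66 for all genes. All 4 Sdh subunits were lower, Sdhc by -1.84 (SE 0.25), Sdhd by -1.42 (SE 0.27), Sdhb by -0.99 (SE 0.16) and Sdha by -0.74 (SE 0.18), and the call for Sdha was lost after quantile normalization (-0.46). So were 5 of 8 members of complex III, among them Uqcr11 (-1.71, SE 0.22) and Uqcrfs1 (-1.29, SE 0.19). Cox6a2 was higher by 3.25 (SE 0.18, at least 4.42-fold) and Cox7c by 4.75 (SE 0.23, at least 2.00-fold). After quantile normalization 7 members were higher and 11 lower (23.5% and 26.9% of all genes). All 4 populations held 12 of 12 astrocyte markers.

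The cholinergic populations, of 1 driver line, differed in few members. Brainstem and spinal cord together against basal forebrain and striatum gave 1 higher and 7 lower of 73 (20.6% and 36.7% of all genes). Cox6a2 was lower by -5.99 (SE 0.16, adjusted p = 1.8e-52), with forebrain and striatal cells at least 13.0-fold above, and the complex I subunit Ndufa7 by -1.58 (SE 0.32). Ndufb1 was higher by 0.81 (SE 0.16), with overlapping arrays. A further member was called higher when any 1 of 5 arrays was left out: brainstem replicate 1 or 2, basal forebrain replicate 3, spinal cord replicate 1 or striatum replicate 3. Quantile normalization gave 3 higher and 2 lower (25.7% and 28.1%). The unbound RNA of these tissues also differed in Cox6a2, by -2.34 (SE 0.14) for brainstem and spinal cord against basal forebrain and striatum, where 6 members were higher and 3 lower of 75 (30.4% and 18.4% of all genes), and 7 and 3 after quantile normalization (26.6% and 24.3%).

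Drd1 and Drd2 medium spiny neurons, the output neurons of the direct and indirect striatal pathways, differed in 5 of 71 members, all higher in Drd1 (16.5% of all genes were higher and 1.74% lower). Cox8a was 1.41 higher (SE 0.41, adjusted p = 0.0088) and Uqcrc2 1.30 higher (SE 0.21, adjusted p = 6.3e-07), and these held under quantile normalization, at 1.09 and 1.03, where 2 were higher and 1 lower (4.36% and 3.95% of all genes). In limma's control-scaled test 0 members were lower, also at an unadjusted p under 0.05. The count of higher members was 1 without Drd1 replicate 3, 2 without Drd2 replicate 1, and 3 without Drd1 replicate 2 or without Drd2 replicate 2.

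Unbound cerebellum was above unbound cortex in 57 of 73 members and below in 1, where 64.7% of all genes were above and 10.8% below, and the medians of members and of all genes were both 0.93. Quantile normalization left 17 above and 1 below (31.8% and 24.9%). Uqcrfs1 (1.69, SE 0.14), the ATP synthase stalk subunit Atp5o (1.60, SE 0.14) and Ndufb11 (1.51, SE 0.10) were above under both scalings without overlap, and Cox6a2 was below (-3.89, SE 0.14).

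Each population was also compared with the unbound RNA of its tissue. The populations of a tissue share those unbound arrays, so the counts of different populations are not independent. Over the 24 populations, members were called higher in TRAP in 624 of 1763 tests and lower in 175, where all genes were higher in 27.2% of tests and lower in 40.8%. Quantile normalization gave 553 and 137 of 1760 (33.2% and 30.2% of all genes). The member median lay above the median of all genes in 19 populations, and in 17 after quantile normalization. The share of members called higher exceeded that of all genes in 13 populations, and in 11.

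Under control scaling, cortical astrocytes had the most members above the unbound tissue, 57 of 74, with 2 below (40.6% and 37.6% of all genes), and 44 and 4 after quantile normalization (41.9% and 36.3%), when Pnoc+ neurons had 44 as well. Cox6b2 was 5.00 higher there (SE 0.23), Cox7a1 4.17 (SE 0.20), Sdhc 3.02 (SE 0.23) and Atp5g2 2.43 (SE 0.29), while Cox7c (-4.84) and Cox6a2 (-3.82) were lower. In Purkinje neurons 44 members were higher and 4 lower (20.1% and 56.9% of all genes), and 34 and 3 after quantile normalization (38.6% and 35.7%). Cox6b2 was 5.32 higher (SE 0.22), Cox7a1 3.60 (SE 0.19) and Ndufb1 2.72 (SE 0.15), and Uqcrfs1 (-0.85), Ndufs1 (-0.78) and Uqcrc2 (-0.73) were lower. Layer 5a had 54 higher and 1 lower, but 74.4% of all genes were higher there and 4.45% lower, and quantile normalization gave 19 higher and 10 lower (32.8% and 27.1%). In cerebellar mature oligodendrocytes 41 of 73 members were lower and 5 higher (65.8% and 11.6% of all genes), led by Ndufs1 (-1.63, SE 0.18) and Sdha (-1.49, SE 0.19), and quantile normalization gave 9 lower and 14 higher (37.9% and 28.2%).

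Single members differed in how often they were called in this comparison. Atp5l was higher in TRAP in 17 of 24 populations, and Atp5e and Ndufb6 in 16. Cox7c was lower in 21. The 9 members with a low r with the others did not go one way. Ndufs1 was lower in 13 and higher in 6, Sdha lower in 11 and higher in 4, Uqcrc2 lower in 10 and higher in 3, Atp5b lower in 8 and higher in 5, Atp5a1 lower in 6 and higher in 4, and Ndufv1 lower in 5 and higher in 4. Uqcrc1 was higher in 13 and lower in 5, Atp5pb higher in 10 and lower in 2, and Ndufa9 higher in 7 and lower in 1.

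**Figure D5:**
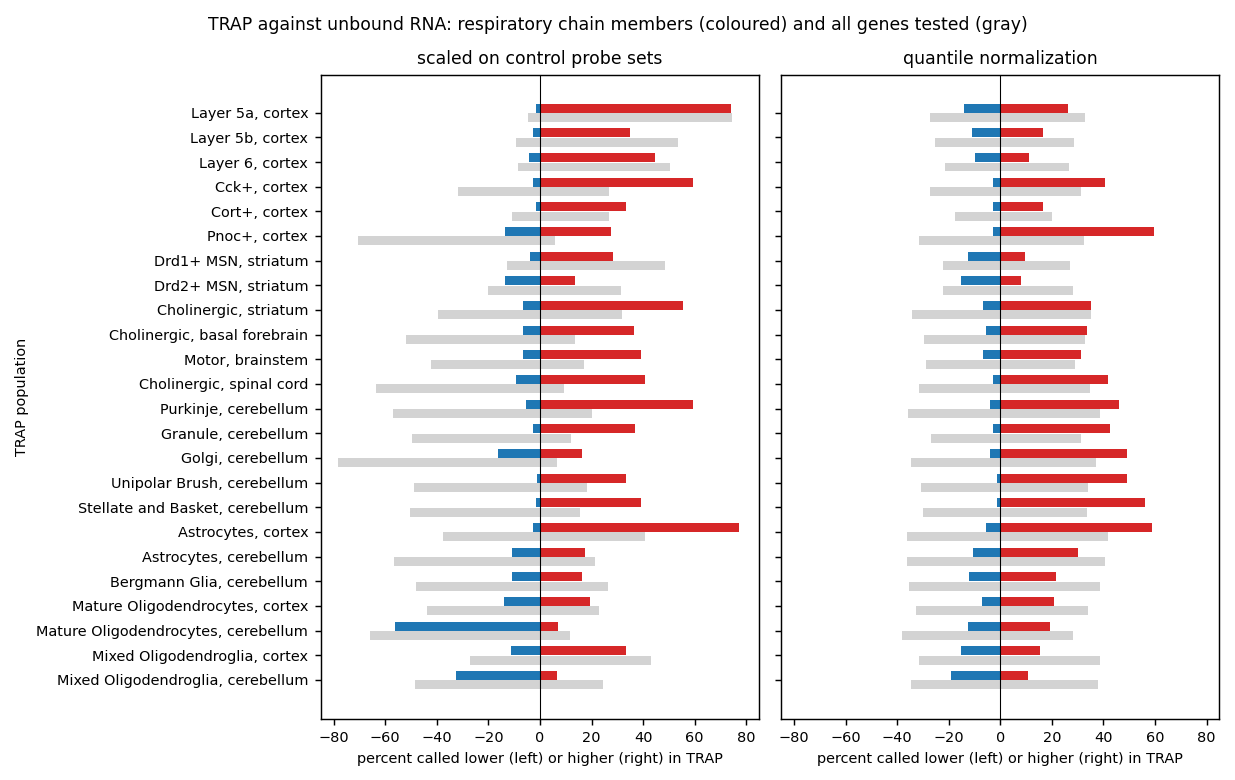
Percent of members (coloured) and of all genes tested (gray) called higher (right) or lower (left) in TRAP than in unbound RNA, for each of 24 populations (vertical axis), under control scaling and quantile normalization. The red bar exceeds the gray one in 13 populations in the left panel and in 11 in the right one.

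Other mitochondrial gene lists were counted beside the members. The genes of the tricarboxylic acid cycle and pyruvate dehydrogenase, which supply NADH and succinate, had 11 of 16 higher in neurons than glia and 1 lower in cortex (41.1% and 27.9% of all genes). In cerebellum 8 of 16 were higher and 1 lower (25% and 37.2% of all genes), with medians of 0.75 and 0.59 against 0.26 and -0.16 for all genes. Dlat, the E2 subunit of pyruvate dehydrogenase, was 1.85 higher in cortex and 2.36 in cerebellum, and Suclg2, the GTP-specific succinyl-CoA ligase subunit, was lower by -2.35 and -4.98. Mitochondrial ribosome genes, which serve translation of the subunits encoded in mitochondria, had 7 of 71 higher and 25 lower in cortex, and 21 higher and 4 lower in cerebellum, beside the same shares of all genes. After quantile normalization these were 6 and 31, and 23 and 4. The difference between the tissues was called negative for 30 of the 71 and positive for 3 (15.8% and 44.3% of all genes), and for 49 and 0 after quantile normalization (29.5% and 27.3%). Mrpl35 was higher in neurons of both, by 1.69 and 1.77.

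Assembly factors, which build the complexes, gave 9 higher and 10 lower of 42 in cortex and 12 higher and 1 lower in cerebellum. For these counts and those of carriers and regulators below, 41.1% of all genes were higher and 27.9% lower in cortex. In cerebellum the shares of all genes were 25% and 37.2%. Atpaf1, an ATP synthase assembly factor, was 2.47 and 2.29 higher in neurons. Atpif1, the inhibitor of the ATP synthase, was 1.55 and 1.63 higher. Among 11 carriers, 4 were higher and 2 lower in cortex, and 4 higher and 1 lower in cerebellum. Slc25a12, an aspartate-glutamate carrier, was higher in neurons, by 2.03 and 1.46. The lower ones include Slc25a13, whose mean was under 6 on both sides. Of the regulators, Gabpa, the DNA-binding subunit of the ETS factor GABP, was lower in neurons by -2.63 in cortex and -2.32 in cerebellum, and Esrrg, an orphan receptor that acts on mitochondrial genes, was higher by 2.24 and 3.43. In cortex 4 of 17 regulators were higher and 4 lower, and in cerebellum 4 of 18 higher and 3 lower.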

How the data were processed

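Arrays with 45101 probe sets measured TRAP and unbound RNA. Per the labels, RNA was amplified in 2 Affymetrix cycles and labelled with biotin. The authors deposited GCRMA intensity values on a linear scale, normalized together within each group, per their design text. The GCRMA version is not given in the sources used here. Many weak probe sets sit at the array minimum (29.5% to 45.7% within 0.01 of it), which compresses low values.

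Intensities were floored at 1, log2-transformed and shifted per group on 18 control probe sets, whose means lay between 10.13 and 12.00 in the groups. The annotation gave 1 symbol for 34958 probe sets, several for 932 and none for 9211. Tests used limma 3.58.1 (R 4.3.3), with a single fit of all arrays, a coefficient per group, eBayes with trend, genes with a group mean of at least 6 in a compared group, and Benjamini-Hochberg adjustment over all genes tested. Where a side holds several groups, their means were averaged with equal weight. A fold is given as "at least" where a group of the lower side is under 6, with that group set to 6. A log2 difference printed without a fold is not bounded in this way, and its size is uncertain where a side is under 6.

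The members and all gene lists were chosen with earlier results of these data known, so counts are set beside those of all genes and no list was tested. Named are up to 6 called members per direction and comparison with the largest difference, the complex IV isoforms, the Sdh subunits and the Atp5g genes, up to 3 called genes of each other list, and the 6 members with the largest and smallest SD. Others (those of the 2 covarying sets, Cox7b2, Ndufb1, Ndufs5 and members named without a rank) were taken after their values were seen. On simulated arrays, a change of 1 log2 unit was called in 98% of genes for cortical neurons against glia with 0 false calls among 9144 genes, in 76% for Purkinje against granule neurons with 7 among 7800, and in 91% for Purkinje TRAP against unbound RNA with 6 among 8503. Alternatives were other scalings, filters, probe set rules, folds, single lines, a replicate block and leaving out arrays.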

Additional observations from a re-analysis of the deposited data

Results flagged for a closer look

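The neuron minus glia difference differed between cortex and cerebellum, by the test of that difference in limma, in 43 of 77 members (adjusted p under 0.05 and 1.5-fold). Of all genes tested, 15.8% were called smaller in cortex and 44.3% larger, so being called different was not particular to the members. In cortex minus cerebellum it was -2.20 for Ndufs5, -2.01 for Cox6b2, -1.45 for Atp5l, -1.43 for Atp5mpl, -1.39 for Ndufb1 and -1.30 for Ndufb10, and 1.96 for Cox6a2 and 0.77 for Uqcrc2. The populations that make up the neuron side differ between the tissues, and their astrocyte markers differ, as given above.

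An array stood apart from the others of its group for 4 of 43 sets of values examined, and chance gives about 1 in 20. These were Cox6b1 in cortical astrocytes (lowest array 15.53), Cox6b1 in unbound striatum (14.89), Cox7a2l in unbound striatum (13.44) and Cox6b2 in Purkinje neurons, where 1 array of line DR168 was highest at 11.66.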

How the results depend on the processing

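Of 3498 values of named genes under the alternatives, 3293 kept their direction and call, 197 lost the call and 8 reversed, and 880 of 952 counts stayed within 1.5 times. Reversed after quantile normalization were Cox8a (-0.13) and Sdhd (-0.049) in unbound cerebellum against cortex; with the mean of all probe sets, Atp5g1 in Purkinje against granule neurons (-1.34) and Uqcr10 in unbound cerebellum against cortex (-0.92); and with neuron populations of few astrocyte markers (an alternative chosen after seeing the data), Ndufs1 (-0.44) and Uqcrc1 (-0.34) in cortical neurons against glia and Cox8b (0.033) and Cox8a (0.14) in the difference between tissues. The cause was not tested. That last alternative also gave 5 higher in cortical neurons and 5 lower in cerebellar neurons. Leaving out layer 5a, also chosen after seeing the data, moved no count of the Cort+ comparison by more than 1.5 times.

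Quantile normalization gave, as members higher and lower, 36 and 2 for cortical astrocytes against oligodendrocytes, 14 and 1 for mature against mixed oligodendroglia, 7 and 11 for Cort+ neurons, 3 and 2 for cholinergic neurons, and 2 and 1 for Drd1 against Drd2. It gave 20 higher for cerebellar astrocytes against oligodendrocytes, 10 lower for Bergmann glia and 17 higher for unbound cerebellum. The shares of all genes for these counts are given above. For the alternatives that follow, the share of all genes called was not computed. Their counts show how the number of called members moved, and not whether members stood out from other genes. Without further scaling, 203 were lower in TRAP over the 17 populations with unbound arrays of their own, 35 lower in mature oligodendrocytes, 3 higher in Bergmann glia, 1 higher and 1 lower in Drd1, 17 higher in unbound cerebellum, and 1 higher and 9 lower in unbound brainstem and spinal cord. No filter on low values gave 2 lower in cortical astrocytes and 2 higher in brainstem and spinal cholinergic neurons. A minimum of 8 gave 0 lower in cortical astrocytes, 1 lower in cerebellar astrocytes, 1 higher in Cort+ neurons and 0 lower in unbound cerebellum, where the filter removes the genes otherwise called.

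The mean of all probe sets gave 0 lower in cortical astrocytes, 5 lower in Purkinje neurons, 1 higher in Cort+ neurons, 2 higher in brainstem and spinal cholinergic neurons and 8 higher in Drd1. At each of these counts of 0 from limma, 0 members were lower at an unadjusted p under 0.05. A 2-fold limit gave 279 higher and 85 lower in TRAP (227 and 55 in the 17 populations), 6 and 2 in cortical neurons, 13 higher in cerebellar neurons, 1 and 15 for the difference between tissues, 34 higher in cortical astrocytes, 19 higher in cerebellar astrocytes, 2 and 2 in mature oligodendrocytes, 4 and 1 in Purkinje neurons, 9 lower in Cort+ neurons, 0 (4 at an unadjusted p under 0.05) and 2 in brainstem and spinal cholinergic neurons, 2 higher in Drd1, 34 higher in unbound cerebellum, and 1 and 1 in unbound brainstem and spinal cord. Counting only genes above their unbound RNA on the higher side gave 1 lower in cerebellar astrocytes and 2 higher in Drd1. Line DR168 alone gave 5 and 5 for Purkinje neurons. Over 79 fits that each left out 1 array, the count of higher members ran from 1 to 2 for Bergmann glia, 1 to 5 for Drd1, 6 to 11 for Purkinje neurons and 1 to 2 for brainstem and spinal cholinergic neurons, and that of lower members from 1 to 3 for Purkinje neurons.

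TRAP and unbound arrays of one number may share a preparation. Every same-number pair correlated above 0.1 for brainstem (0.49 to 0.65) and basal forebrain (0.34 to 0.53) of the Chat line, but 9 of 15 did over the 5 sets with 3 pairs, and 16 of 21 matched their own number best. The 21 include sets with 2 pairs, where both pairs have the same r by construction. There, r with the other number is its negative, so both pairs match or neither does. The 21 are therefore not separate checks. With the preparation as a random block, 628 members were higher and 176 lower in TRAP, so this changed neither count by 1.5 times. With the number as a replicate block, 631 members were higher and 175 lower in TRAP and 10 and 9 in cortical neurons, and the calls of 4 named members were lost: Atp5g2 in cortical astrocytes (0.83), Atp5g2 (-0.70) and Atp5g1 (0.58) in Purkinje neurons and Cox8a in unbound cerebellum (0.58).

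With 3 arrays in most groups, and identical values within groups, small changes rest on little; levels under 6 give bounds only.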
